A study of Mus musculus with 8 samples.

Results

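The genes described here are 52 genes of the cell cycle and of DNA replication, chosen as a list of gene symbols and matched to the Ensembl identifiers of the 55416 genes counted in mouse lung. Of them, 22 act mainly around the entry into S phase (G1/S members) and 30 act in G2 and mitosis (G2/M members). All 52 passed the filter on low counts, as did 18560 of the 55416 genes. A dividing cell first loads the MCM helicase onto replication origins, then fires these origins under cyclin E and S phase kinases, copies its DNA, and at last separates its chromosomes under CDK1 with its B cyclins and the mitotic kinases. G1/S genes are largely switched on by E2F transcription factors when the retinoblastoma protein lets go of them, and many G2/M genes are held down in resting cells by the DREAM complex and switched on by B-MYB and FOXM1. Most cells of the adult lung are resting, but transcripts of these genes were not all scarce there. In control mice 1, 2 and 4, which had no LPS, Hmmr had 5, 9 and 9 counts. In the same mice Pcna had 1692, 1612 and 1627 counts and Stmn1 had 1972, 1627 and 1692. Which cells the transcripts came from was not tested.

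The lungs came from female C57BL/6J mice 6 to 8 weeks old, in 3 groups that were compared to learn how an inhibitor of peptidylarginine deiminases, the enzymes that turn arginine into citrulline, alters the lung in endotoxin shock. The control group (mice 1, 2 and 4) was given the solvent DMSO into the tail vein and then saline into the peritoneal cavity. The LPS group (mice 1, 6 and 7) was given 35 mg/kg of lipopolysaccharide, a component of the bacterial outer membrane, into the peritoneal cavity, and the dual-treatment group (mice 2 and 5) was given 10 mg/kg of the inhibitor YW3-56 in DMSO shortly before the same LPS dose. By the abstract of the study the LPS group had LPS only, its methods name no DMSO for that group, and no group was given YW3-56 without LPS. The lungs were taken 24 h after LPS, and 1 library was sequenced for each mouse. In the survival experiment of the study, median survival was shorter than 24 h after LPS alone and longer with YW3-56 before it. The part of this difference in the levels given here was not tested. The total counts were 19061949, 19796242 and 20527836 in the control mice, 20818501, 19379911 and 19279724 in the LPS mice, and 19875939 and 20908608 in the dual-treated mice. Values are TMM-normalized CPM (counts scaled by library size), in the order of the mouse numbers just given, and means are given ± SD over 3, 3 and 2 mice. The lung identity of the libraries was plain from the surfactant gene Sftpc, which had 24190, 19550 and 24510 CPM in the control mice, 16550, 11040 and 8314 in the LPS mice, and 8520 and 17870 in the dual-treated mice. In LPS mice 6 and 7, but not in LPS mouse 1, genes of squamous epithelium and skeletal muscle were also high, so the main counts are given below without these libraries as well.

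The set score of a mouse, the mean over members of log2 CPM, put both phases higher in the LPS and dual-treated mice than in the control mice. For the G1/S members it was 2.54, 2.43 and 2.54 in the control mice, 3.48, 3.46 and 3.30 in the LPS mice, and 4.05 and 3.41 in the dual-treated mice. For the G2/M members the values were 1.06, 1.20 and 1.10 in control, 2.37, 2.11 and 1.94 in LPS, and 3.11 and 2.41 in the dual treatment. Neither score overlapped between the control mice and the other 5. Dual-treated mouse 2 had the highest value of the 8 mice on both scores, whereas dual-treated mouse 5 lay within the range of the LPS mice on the G1/S score and just above it on the G2/M score. With library size in place of TMM, mouse 5 lay above every LPS mouse on both, at 3.53 against at most 3.30 (G1/S) and 2.53 against at most 2.08 (G2/M). The mean log2 CPM of all 18560 tested genes, which TMM keeps nearly level, ran from 3.24 to 3.38 over the 8 mice, and with library size it was 3.4, 3.42 and 3.38 in control, 2.97, 3.12 and 3.22 in LPS, and 3.52 and 3.49 in the dual treatment. In whole lung, more cells in cycle and more RNA of these genes per cell cannot be told apart.

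**Figure D1:**
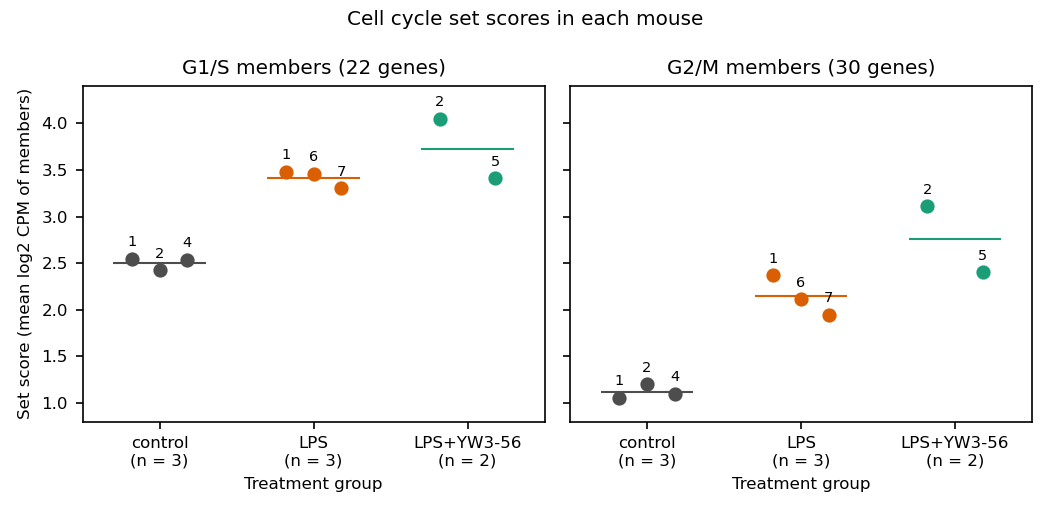
Set scores of the 22 G1/S members (left) and the 30 G2/M members (right) in each mouse, as mean log2 CPM of the members on the vertical axis, with the 3 treatment groups on the horizontal axis. Points are mice, labelled with their numbers, and horizontal bars are group means. The 3 control mice lie below the other 5 in both panels, and dual-treated mouse 2 is the highest.

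The first comparison, LPS against control, asks what endotoxin shock does to these genes, and most of them were higher. Control mice had DMSO into the tail vein, and none is named for the LPS group. This comparison therefore also holds the solvent and its injection, whose part was not tested. Mki67, the proliferation antigen that coats mitotic chromosomes, rose 4.25-fold, the mitotic kinase gene Cdk1 rose 4.49-fold, Ccnb1, which encodes its partner cyclin B1, rose 6.01-fold, and the replication initiation factor gene Mcm10 rose 16.1-fold. At an adjusted p under 0.05, 36 of the 52 members were higher than in control and 4 were lower, beside 32.6% of all tested genes higher and 33.9% lower. By phase, 14 G1/S members were higher and 2 lower of 22, with a median log2 fold change (log2FC) of 0.78, and 22 G2/M members were higher and 2 lower of 30, with a median of 1.38. The median over all tested genes was -0.01. The 4 members that fell, Stmn1, Bub1, E2f1 and Mcm7, were spread over 4 different roles. Under the criterion of the study (more than 2-fold, with p under 0.05 and no adjustment), which the study used with DESeq2 and which is used here with the edgeR test, 30 members were higher and 3 lower, beside 18.3% and 21.8% of all genes. Without LPS mice 6 and 7 the adjusted test gave 34 members higher and 4 lower, with medians of 0.84 for G1/S and 1.61 for G2/M, beside 27.1% and 28.4% of all genes. Of the 40 called members 32 held under each alternative with an adjusted p in which they were tested (Hmmr and Dlgap5 were not tested with at least 10 counts in every library), while of the 16 such alternatives Mcm2 lost its call under 9, Rrm1 under 8, Cdca8 and Mcm7 under 7, Cenpf under 4, Kif20a under 3, Mcm6 under 2 and Cenpe under 1.

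The dual-treated lungs, compared with the same 3 control mice, also had higher levels of most members, and no member was called lower. Top2a, the topoisomerase that untangles replicated DNA, rose 6.90-fold, Mki67 rose 6.05-fold, the DNA methylation maintenance gene Uhrf1 rose 8.42-fold and the spindle gene Hmmr rose 9.28-fold. In all, 38 of 52 members were higher, beside 9.13% of all tested genes, and 0 were lower, beside 7.02%. With edgeR 1 member, Stmn1, was lower at an unadjusted p under 0.05, and DESeq2 called the same gene lower. The higher members were 14 of 22 for G1/S, with a median log2FC of 1.15, and 24 of 30 for G2/M, with a median of 1.84, against 0.00 over all tested genes. By the criterion of the study 36 were higher and 0 lower, beside 7.04% and 3.43%. Without dual-treated mouse 2, 21 members were called higher, beside 4.06% of all genes (and 2.21% lower), so that calls fell among genes at large as well. They were 7 G1/S and 14 G2/M members, and the medians were 0.74 and 1.32. Without dual-treated mouse 5, 39 were higher and 1 lower, beside 8.66% and 7.77%. Of the 38, 20 held under each alternative with an adjusted p in which they were tested. Cenpf lost its call under 7, Cdc20 and Kif20a under 5, Cdc45 and Mybl2 under 4, Plk1 under 3, Mcm6, Cdt1, Birc5 and Foxm1 under 2, and Ccne1, E2f8, Rrm1, Rrm2, Ccnb2, Cdca3, Nusap1 and Tpx2 under 1. All of these except Rrm1, 17 in number, were lost without mouse 2.

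The dual treatment against LPS alone asks what the inhibitor changes in shock, and here fewer members were called. The methods name DMSO for the dual treatment and not for the LPS group, so this comparison also holds the solvent. The part of the solvent was not tested. Of the 52, 17 were higher and 4 lower, beside 31.7% of all tested genes higher and 27.4% lower, so the share that was higher was near that of genes in general. The 17 included the 3 genes that LPS had lowered most, Stmn1, Bub1 and E2f1, together with Rrm2, Top2a, Hmmr and Uhrf1. The 4 that were lower were the G1/S members Mcm10, Ccne2, Cdt1 and Mcm4. By phase, 7 G1/S members were higher and 4 lower, with a median log2FC of 0.42, and 10 G2/M members were higher and 0 lower, with a median of 0.48, against 0.06 over all tested genes. No G2/M member was lower at an unadjusted p under 0.05 with edgeR or at an adjusted p with DESeq2 either. The criterion of the study gave 11 members higher and 1 lower, beside 20.6% and 14.7%. Without dual-treated mouse 2 the count was 7 higher and 5 lower, with medians of 0.09 and 0.06, beside 26.6% and 23% of all genes. Without dual-treated mouse 5 it was 22 higher and 2 lower, beside 23.5% and 20.7%, and without LPS mice 6 and 7 it was 8 higher and 4 lower, beside 25.9% and 23.2%. The higher members were 4 for G1/S and 3 for G2/M without mouse 2, and 5 and 3 without LPS mice 6 and 7. With mouse 2 left out, 1 G2/M member was lower. The 10 calls lost without mouse 2 were those on Cdc45, Rrm1, Rrm2, Aurkb, Cdca8, Cenpe, Kif2c, Tpx2, Prc1 and Hmmr. Bub1, E2f1, Stmn1, Top2a, Uhrf1, Mcm2 and Mcm10 were the 7 of 21 called members that kept their call under all alternatives with an adjusted p. Aurkb and Kif2c lost it under 11, Ccne2 under 6, Cenpe under 4, Cdc45, Cdca8, Cdt1 and Tpx2 under 3, Hmmr, Mcm4, Prc1, Rrm1 and Rrm2 under 2, and Mcm5 under 1. Scaling by library size alone moved the all-gene median to -0.29 in LPS against control and to 0.38 in the dual treatment against LPS, where it called 42.5% of all genes higher and 17.4% lower and 29 members higher and 1 lower. No called member changed direction with that scaling or with DESeq2 size factors.

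By group means, 36 of the 52 members (69.2%) stood in the order control, LPS, dual treatment from lowest to highest, as did 8.18% of all tested genes. A further 9 had their highest mean in the LPS group with the dual treatment between it and control, 5 were lowest in LPS and highest in the dual treatment, and 2, Stmn1 and Mcm7, were lowest in LPS and highest in control. Dual-treated mouse 2 lay above dual-treated mouse 5 in 50 members, the exceptions being Mcm4 and Stmn1, and was the highest of the 8 mice in 40 members. Among all tested genes mouse 2 was the higher of the pair in 48.0% and the highest of the 8 in 11.9%. Every value for the dual treatment rests on that pair of mice.

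**Figure D2:**
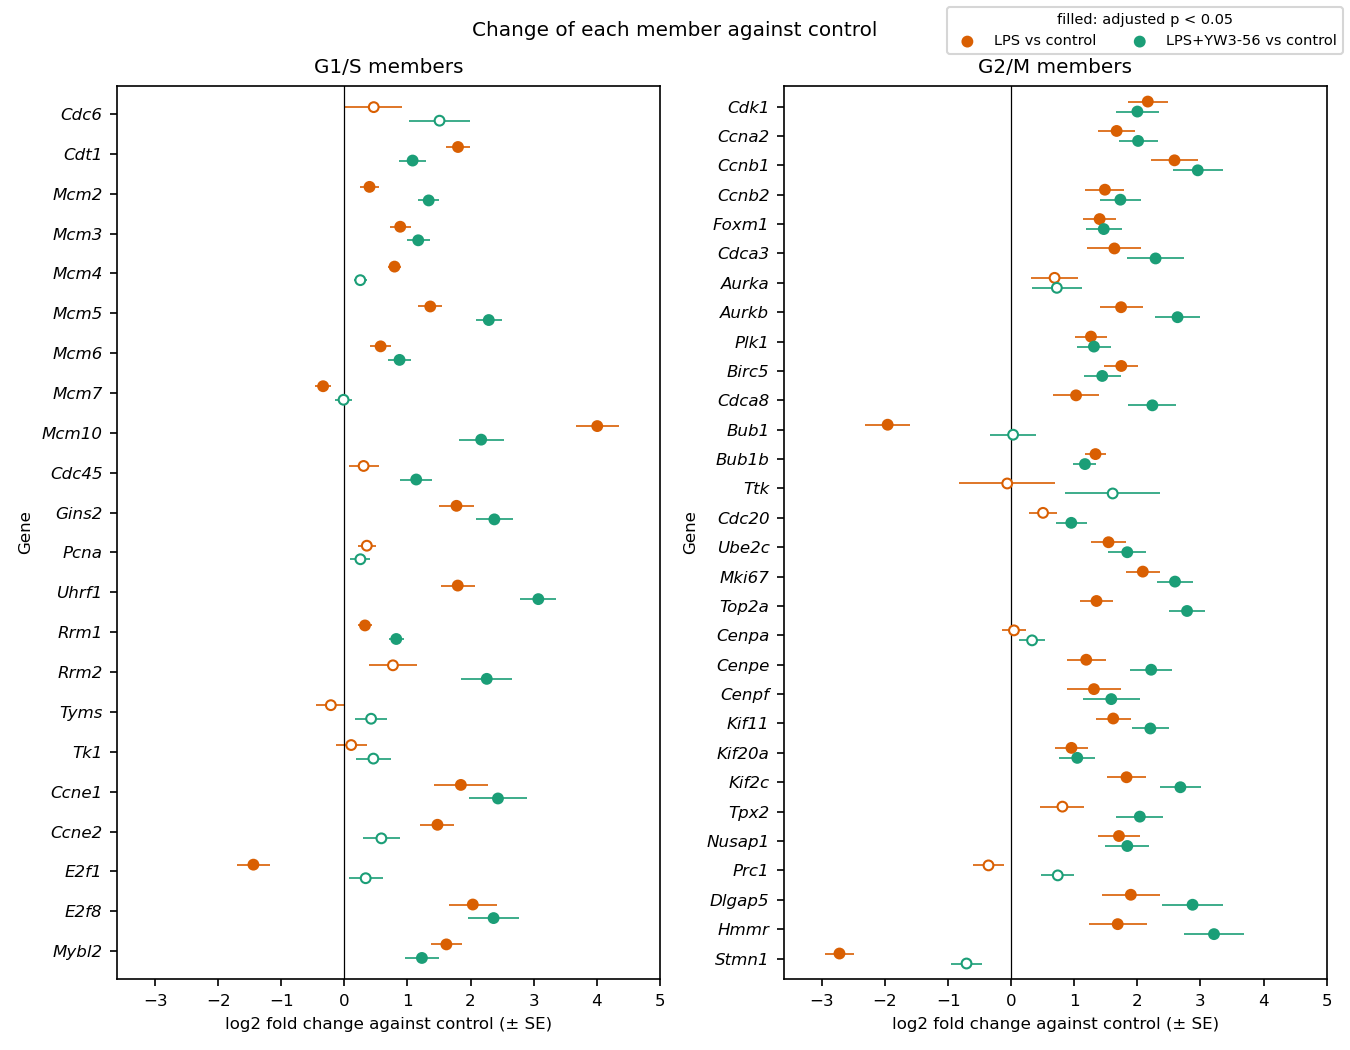
Log2 fold change against control, with its standard error as a horizontal bar, for each of the 22 G1/S members (left) and the 30 G2/M members (right), in LPS (orange) and LPS plus YW3-56 (green); filled points have an adjusted p under 0.05. Both comparisons use the same 3 control mice. Stmn1, Bub1 and E2f1 lie far to the left of 0 in LPS, and Mcm10 far to the right.

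Among the 8 origin licensing genes, whose products load the MCM2 to MCM7 helicase onto DNA before replication, 6 were higher after LPS, 1 was lower and Cdc6 was not called. The counts by role are to be held beside the shares of all tested genes, 32.6% higher and 33.9% lower after LPS, 9.13% and 7.02% in the dual treatment against control, and 31.7% and 27.4% against LPS. The dual treatment had 5 licensing genes above control, and 3 without mouse 2. Mcm6, a subunit of the helicase ring, had 26.4, 25.0 and 28.4 CPM in the control mice, 44.8, 39.4 and 34.7 in the LPS mice, and 59.4 and 38.2 in the dual-treated mice. Its lowest LPS mouse and both dual-treated mice were above every control mouse (log2FC 0.57 for LPS and 0.87 for the dual treatment), although the call in LPS was lost with library size scaling and that in the dual treatment without mouse 2, and both with the test against a 1.5-fold change. The largest rise after LPS in this role was that of Cdt1, the loading factor that brings the helicase to the origin, at 6.89, 6.24 and 6.75 CPM in the control mice, 24.8, 23.3 and 21.2 in the LPS mice, and 17.7 and 10.4 in the dual-treated mice. Cdt1 was lower in the dual treatment than in LPS (log2FC -0.72 ± 0.21 SE, edgeR adjusted p = 0.0159), although still above control. The first of these calls was lost with library size scaling, without dual-treated mouse 5 and with the test against a 1.5-fold change, and the second without dual-treated mouse 2 and with that test. Mcm5 went the other way, with 5.72, 6.33 and 6.71 CPM in control, 19.3, 16.6 and 12.4 in LPS, and 34.9 and 26.3 in the dual treatment, and was higher in the dual treatment than in LPS (log2FC 0.93 ± 0.20 SE, edgeR adjusted p = 0.00317). Mcm7, a subunit of the same ring, fell slightly after LPS (log2FC -0.34), with 41.2, 34.1 and 35.2 CPM in control, 26.1, 31.6 and 29.8 in LPS, and 39.6 and 33.5 in the dual treatment, and the difference of the dual treatment from LPS was not called. Mcm2 and Mcm3 were higher than control in both treated groups, although Mcm2 after LPS only narrowly (log2FC 0.40, edgeR adjusted p = 0.0473, lost under 9 alternatives), and Mcm2 was also higher in the dual treatment than in LPS (log2FC 0.94). Mcm4 was called higher than control in LPS alone of the 2 treated groups. It had 23.4 ± 1.44 CPM in control, 40.6 ± 2.2 in LPS and 27.9 ± 0.325 in the dual treatment. Both dual-treated mice lay above every control mouse, but the difference was not called (log2FC 0.25). The difference between the dual treatment and LPS was called (log2FC -0.54), but not with library size scaling or against a 1.5-fold change. Subunits of this ring thus had calls in both directions after LPS, although that of Mcm7 was lost with DESeq2, with its size factors in edgeR, against a 1.5-fold change and without LPS mouse 1 or 7 or control mouse 1 or 4. Mcm7 also shares 6.13% of its exon bases with Cops6 and 6.2% with Ap4m1, both on the other strand. Its counts are thus uncertain if reads were assigned without regard to strand. Cdt1, Mcm2, Mcm4 and Mcm5 are given here after their values were seen.

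Of the 5 genes of the replication fork, 3 were higher after LPS and 4 after the dual treatment. Mcm10 (ENSMUSG00000026669, chr2:4994516-5017629 of GRCm39, minus strand) encodes a factor that turns the loaded helicase into a moving fork. It had 1.42, 0.985 and 1.15 CPM in the control mice, 23.1, 15.0 and 19.2 in the LPS mice, and 7.39 and 3.29 in the dual-treated mice, with no overlap between any 2 of the 3 groups. After LPS it changed more than any other member (log2FC 4.01 ± 0.34 SE, edgeR adjusted p = 7.58e-06), and it was 3.58-fold lower in the dual treatment than in LPS. Uhrf1, whose product recognises hemimethylated DNA behind the fork, had 2.15, 1.45 and 2.30 CPM in control, 7.17, 6.69 and 6.69 in LPS, and 21.3 and 11.9 in the dual treatment. All LPS mice exceeded the control mice and both dual-treated mice exceeded the LPS mice (log2FC 1.28 ± 0.27 SE, edgeR adjusted p = 0.00278 for the latter). Pcna (ENSMUSG00000027342, chr2:132091082-132095234 of GRCm39, minus strand), the sliding clamp that holds the polymerase on DNA, had the highest level of the 52 members per transcript length over the 8 mice, at 59.0 CPM per kilobase (RPKM). It had 82.7, 75.6 and 74.7 CPM in the control mice, 121, 95.8 and 81.1 in the LPS mice, and 100.2 and 85.1 in the dual-treated mice, and its 3 differences were not called (edgeR adjusted p = 0.0505 in LPS, 0.32 in the dual treatment and 0.604 between them). Gins2 was higher in both treated groups, and the CDC45 gene Cdc45 in the dual treatment, against control as well as against LPS. Both calls on Cdc45 were lost without dual-treated mouse 2 and with the test against a 1.5-fold change. The call against control was also lost without control mouse 1 or 4, and that against LPS without LPS mice 6 and 7. Gins2 shares 67.3% of its exon bases with Gse1, and Cdc45 shares 10.6% with Ufd1, both on the other strand. The counts of Gins2 and Cdc45 are therefore uncertain if reads were assigned without regard to strand.

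Of the 4 genes of nucleotide supply, 1 was higher after LPS (25%, beside 32.6% of all tested genes) and 2 after the dual treatment (50%, beside 9.13%). Without dual-treated mouse 2 the latter count was 1, as Rrm2 lost its call. Rrm1, the large subunit of ribonucleotide reductase, had 25.4, 22.6 and 23.6 CPM in the control mice, 30.3, 32.8 and 26.6 in the LPS mice, and 44.2 and 40.1 in the dual-treated mice. It was higher in LPS by a small step (log2FC 0.33) and higher again in the dual treatment (log2FC 0.50 against LPS). The call in LPS was lost under 8 alternatives, with library size scaling, with no filter on low counts, against a 1.5-fold change, without LPS mice 6 and 7, and without LPS mouse 1 or 6 or control mouse 2 or 4. Rrm2, the subunit made in S phase, had 1.76, 2.86 and 2.94 CPM in control, 4.50, 4.96 and 3.46 in LPS, and 17.7 and 6.49 in the dual treatment. Its level in LPS was not called against control, and dual-treated mouse 2 had the highest value by a wide margin (log2FC 1.49 ± 0.39 SE, edgeR adjusted p = 0.00957 against LPS), a call that was lost without that mouse and without LPS mice 6 and 7. Tyms, which makes thymidylate, and Tk1, which salvages thymidine, were not called in any of the 3 comparisons, with log2FC between -0.21 and 0.64 for Tyms and between 0.11 and 0.46 for Tk1.

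Of the 5 genes for E cyclins and E2F-linked transcription factors, 4 rose after LPS and E2f1 fell. Against control, 3 were higher in the dual treatment, and 0 without mouse 2. E2f1 (ENSMUSG00000027490, chr2:154401326-154411812 of GRCm39, minus strand), an activator of S phase genes, had 9.83, 8.06 and 12.4 CPM in the control mice, 4.68, 4.04 and 2.45 in the LPS mice, and 13.5 and 12.1 in the dual-treated mice. The LPS mice lay below the other 5 without overlap (log2FC -1.44 ± 0.26 SE, edgeR adjusted p = 0.00084 against control), and the dual treatment was called higher than LPS and was not called against control. E2f8, an atypical E2F that represses such genes late in S phase, moved oppositely to E2f1 after LPS, with 0.538, 0.656 and 0.551 CPM in control, 1.84, 2.19 and 3.18 in LPS, and 4.04 and 2.02 in the dual treatment. Ccne1, for cyclin E1, had 1.42, 0.797 and 0.965 CPM in the control mice, 3.20, 5.25 and 3.01 in the LPS mice, and 8.39 and 3.11 in the dual-treated mice. In LPS it rose 3.60-fold and in the dual treatment 5.41-fold, with mouse 2 well above mouse 5. Ccne2, for cyclin E2, had 2.2, 2.58 and 1.47 CPM in control, 6.05, 6.17 and 5.19 in LPS, and 3.72 and 2.54 in the dual treatment. It was higher in LPS than in control and lower in the dual treatment than in LPS (log2FC -0.89 ± 0.30 SE, edgeR adjusted p = 0.0278), a call lost under 6 alternatives, library size scaling among them, and its dual-treated mice overlapped the control mice. Mybl2, the gene of B-MYB, rose in both treated groups (log2FC 1.62 and 1.23).

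All 6 genes of the group with CDK1, its cyclins and FOXM1 were higher than control in both treated groups, and none was called between the dual treatment and LPS. Without dual-treated mouse 2 the dual treatment kept 3 of these 6 calls, those on Ccnb2, Foxm1 and Cdca3 being lost. Cdk1 (ENSMUSG00000019942, chr10:69170976-69236595 of GRCm39, minus strand) had 2.10, 2.30 and 1.52 CPM in the control mice, 11.7, 9.0 and 5.86 in the LPS mice, and 9.84 and 5.96 in the dual-treated mice. The control mice lay below the other 5, while LPS and dual-treated mice overlapped (log2FC 2.17 ± 0.32 SE, edgeR adjusted p = 0.000248 in LPS). Ccnb1 had 0.489, 1.27 and 0.781 CPM in control, 6.11, 5.65 and 3.62 in LPS, and 8.03 and 5.22 in the dual treatment. This was the largest rise of a G2/M member after LPS (log2FC 2.59 ± 0.38 SE, edgeR adjusted p = 0.000221). The cyclin A2 gene Ccna2, Ccnb2, Foxm1 and Cdca3 had log2FC from 1.40 to 1.67 in LPS and from 1.47 to 2.29 in the dual treatment.

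Of the 5 genes for mitotic kinases and chromosomal passengers, 4 were higher in each treated group and Aurka was not called in any comparison. Without dual-treated mouse 2 the count in the dual treatment was 2, as Plk1 and Birc5 lost their calls. Birc5, for the passenger protein survivin, had 2.05, 2.67 and 2.53 CPM in the control mice, 8.24, 8.83 and 7.31 in the LPS mice, and 8.75 and 4.43 in the dual-treated mice. Every LPS mouse lay above every control mouse, and dual-treated mouse 5 lay between the 2 groups. Aurkb, the kinase of the passenger complex, and Cdca8, for its subunit borealin, were also higher in the dual treatment than in LPS (log2FC 0.89 and 1.21). The call on Aurkb against LPS was lost under 11 alternatives, DESeq2 among them, and that on Cdca8 without dual-treated mouse 2, without LPS mice 6 and 7 and against a 1.5-fold change. Both were named after their values were seen. Plk1, which drives mitotic entry, had similar log2FC of 1.26 and 1.31 in LPS and in the dual treatment.

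The 5 genes of the spindle checkpoint and of anaphase promotion were divided after LPS: Bub1b and Ube2c rose, Bub1 fell, and Ttk and Cdc20 were not called. Bub1 (ENSMUSG00000027379, chr2:127643036-127673806 of GRCm39, minus strand) encodes a kinase that marks centromeres for the checkpoint, and Bub1b encodes BUBR1, which restrains the anaphase-promoting complex. Bub1 had 2.49, 3.38 and 3.58 CPM in the control mice, 0.652, 1.21 and 0.558 in the LPS mice, and 3.81 and 2.63 in the dual-treated mice. The LPS mice lay below the other 5 mice without overlap (log2FC -1.96 ± 0.36 SE, edgeR adjusted p = 0.000983 against control and 1.99 ± 0.39 SE, edgeR adjusted p = 0.00177 for the dual treatment against LPS). Bub1b had 5.72, 4.64 and 5.74 CPM in control, 12.4, 15.5 and 12.8 in LPS, and 13.0 and 11.1 in the dual treatment. Here both treated groups lay above control and overlapped each other. Per transcript length, Bub1 and Bub1b stood at 0.914 and 1.46 RPKM in control and at 0.234 and 3.69 RPKM in LPS. Cdc20, the activator of the anaphase-promoting complex, was higher than control in the dual treatment (log2FC 0.95 ± 0.25 SE, edgeR adjusted p = 0.0285), and Ttk was scarce, at 0.420 ± 0.205, 0.405 ± 0.329 and 1.30 ± 0.787 CPM in the 3 groups.

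Of the 5 genes for chromosomes and centromeres, 4 were higher than control in both treated groups. Mki67 (ENSMUSG00000031004, chr7:135291513-135318299 of GRCm39, minus strand) had 7.67, 6.66 and 7.26 CPM in the control mice, 40.0, 25.7 and 26.0 in the LPS mice, and 57.9 and 29.3 in the dual-treated mice. The 3 groups stood at 7.20 ± 0.511, 30.6 ± 8.17 and 43.5 ± 20.2 CPM, and the difference between LPS and the dual treatment was not called (edgeR adjusted p = 0.137). Top2a (ENSMUSG00000020914, chr11:98883769-98915062 of GRCm39, minus strand) had 3.67, 4.36 and 4.09 CPM in control, 11.1, 9.17 and 10.7 in LPS, and 38.2 and 17.7 in the dual treatment. For this gene no 2 groups overlapped, and the dual treatment was higher than LPS as well (log2FC 1.44 ± 0.28 SE, edgeR adjusted p = 0.00168). The motor gene Cenpe and the kinetochore gene Cenpf were higher in both treated groups (Cenpf lost its call under 4 alternatives in LPS and 7 in the dual treatment, where its adjusted p was 0.0431), whereas Cenpa, which encodes the histone H3 variant of centromeres, was not called in any comparison, at 7.60 ± 0.735, 7.84 ± 1.46 and 9.56 ± 1.61 CPM.

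Of the 9 genes for spindle motors and microtubules, 6 rose after LPS, 1 fell and 2 were not called. After the dual treatment 7 were above control, and 4 without mouse 2. Stmn1 (ENSMUSG00000028832, chr4:134195021-134201882 of GRCm39, plus strand) encodes stathmin, which destabilises microtubules and is also made in cells outside mitosis. It had 96.4, 76.3 and 77.7 CPM in the control mice, 15.7, 12.2 and 10.2 in the LPS mice, and 37.1 and 65.0 in the dual-treated mice. The LPS mice lay below all others without overlap, 6.60-fold below control (log2FC -2.72 ± 0.23 SE, edgeR adjusted p = 7.91e-06). In the dual treatment it was 4.04-fold higher than in LPS and not called against control (log2FC -0.71 ± 0.24 SE, edgeR adjusted p = 0.0767), although both dual-treated mice lay below every control mouse. Hmmr had 0.244, 0.422 and 0.413 CPM in control, 1.60, 1.27 and 0.669 in LPS, and 4.26 and 2.54 in the dual treatment. Its log2FC of 3.21 in the dual treatment was the largest of the 52 members in that comparison, from a low level in control, and its call against LPS was lost without dual-treated mouse 2 and without LPS mice 6 and 7. Kif11, Kif20a, Kif2c, Nusap1 and Dlgap5 were higher than control in both treated groups, with log2FC from 0.95 to 1.90 in LPS and from 1.05 to 2.87 in the dual treatment. Tpx2 was higher than both other groups in the dual treatment (log2FC 2.04 against control and 1.23 against LPS), and Prc1 was called in the dual treatment against LPS alone (log2FC 1.10). All these calls on Tpx2 and Prc1 were lost without dual-treated mouse 2. Those against LPS were also lost without LPS mice 6 and 7. Kif20a shares 54.8% of its exon bases with Cdc23 on the other strand, and in all 23 members share exon bases with another gene, 22 of them on the other strand.

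**Figure D3:**
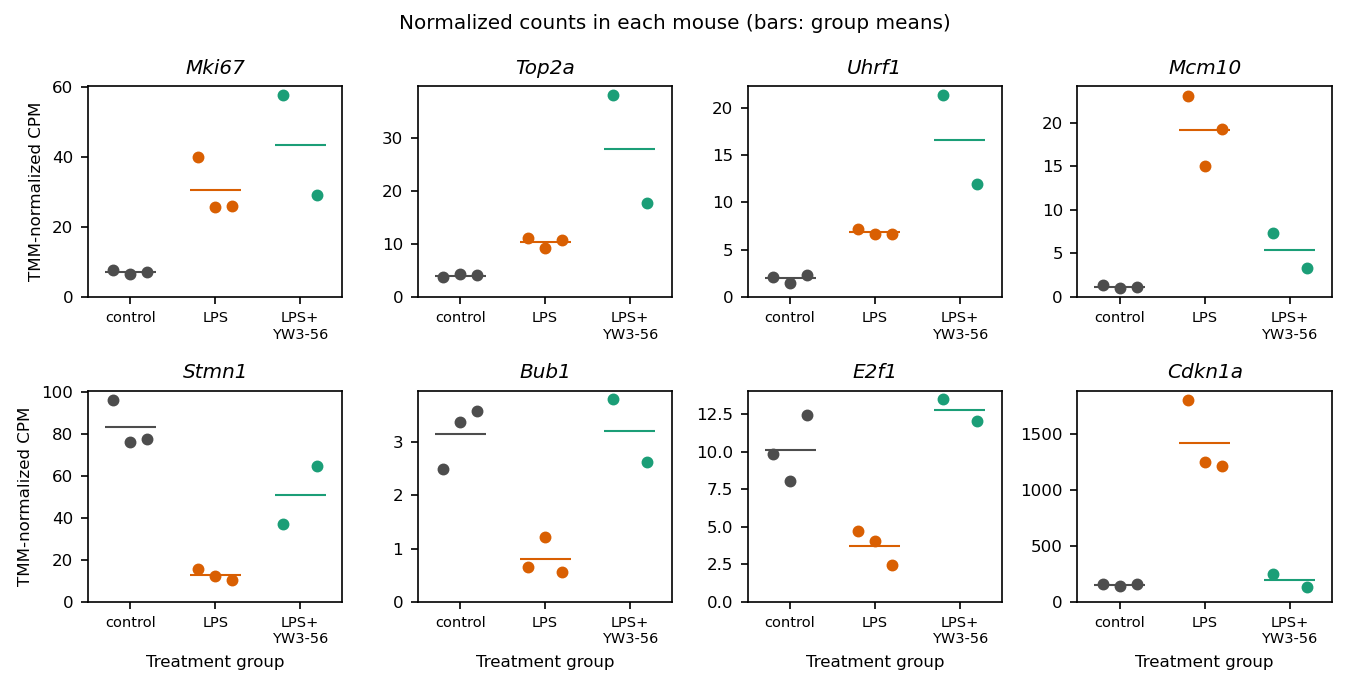
TMM-normalized CPM in each mouse (points) with group means (bars), on axes that start at 0, for 7 members and the CDK inhibitor gene Cdkn1a. Mki67, Top2a and Uhrf1 are higher in both treated groups than in control, Mcm10 and Cdkn1a are highest in LPS, and Stmn1, Bub1 and E2f1 are lowest in LPS.

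No gene of the D cyclin list was called higher after LPS. The D cyclins start the phosphorylation of the retinoblastoma protein with CDK4 and CDK6. Of these 6 D cyclin and G1 kinase genes, 0 were higher and 3 lower after LPS, 2 higher in the dual treatment than in control, and 4 higher in the dual treatment than in LPS. Of all tested genes 33.9% were lower after LPS, 9.13% higher in the dual treatment than in control and 31.7% higher than in LPS, beside 50%, 33.3% and 66.7% of these 6. No gene of this list was higher after LPS at an unadjusted p under 0.05 with edgeR, and DESeq2 called 0, but 1 was called higher without LPS mouse 7 and without LPS mice 6 and 7. Ccnd1 had 61.5, 59.7 and 61.9 CPM in the control mice, 37.9, 30.9 and 37.9 in the LPS mice, and 119 and 92.8 in the dual-treated mice. The 3 groups did not overlap, with LPS lowest and the dual treatment highest (log2FC 1.57 ± 0.13 SE, edgeR adjusted p = 1.5e-05 between them). Ccnd2 was not called in any comparison, at 96.1 ± 4.25, 85.9 ± 8.55 and 94.1 ± 17.6 CPM. Ccnd3 was higher in the dual treatment than in control (log2FC 0.53) and LPS (log2FC 0.36). Cdk4 was lower in LPS than in control (log2FC -0.74) and higher in the dual treatment than in LPS (log2FC 0.99).

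All 7 CDK inhibitor genes were called after LPS, 4 higher and 3 lower (57.1% and 42.9%), in a comparison that called 32.6% of all tested genes higher and 33.9% lower. Cdkn1a, which encodes p21, the inhibitor that p53 switches on, had 159.6, 136 and 158 CPM in the control mice, 1798, 1245 and 1212 in the LPS mice, and 243 and 135 in the dual-treated mice. It rose 9.37-fold after LPS (log2FC 3.23 ± 0.24 SE, edgeR adjusted p = 4.2e-06), while the dual-treated mice lay on either side of the control range. Cdkn2b, Cdkn2d and Cdkn2a also rose after LPS, by 2.82-fold, 2.82-fold and 2.84-fold, the first from 30.1 ± 1.87 to 84.8 ± 15.1 CPM and the second from 26.1 ± 1.80 to 73.7 ± 16.7 CPM. Cdkn2a stayed below 2 CPM in every mouse. Cdkn1c, for p57, fell from 30.1 ± 1.63 to 6.44 ± 1.54 CPM, Cdkn2c fell by 1.30 on the log2 scale, and Cdkn1b, for p27, fell by 0.73. Against LPS, the dual treatment had Cdkn1a, Cdkn2b and Cdkn2d lower (log2FC -2.91, -1.12 and -1.22) and Cdkn1c and Cdkn2c higher (log2FC 1.88 and 1.14), 42.9% and 28.6% of the 7 beside 27.4% and 31.7% of all genes. Against control, Cdkn1b was the 1 inhibitor gene called with edgeR in the dual treatment, where it was lower (log2FC -0.53 ± 0.14 SE, edgeR adjusted p = 0.0332). DESeq2 called 1 inhibitor gene lower and 1 higher there, and with edgeR Cdkn2a was higher at an unadjusted p under 0.05 and by the criterion of the study (log2FC 1.87 ± 0.56 SE, edgeR adjusted p = 0.0519). Mki67 and Cdk1 were above control in the LPS mice, where Cdkn1a was high. They were also above control in the dual-treated mice, where Cdkn1a was 243 and 135 CPM and not called against control. Any link between these genes was not tested.

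Of 17 genes for pocket proteins, further E2F factors and the MuvB core of the DREAM complex, 6 were higher and 4 lower after LPS, 4 higher and 2 lower in the dual treatment than in control, and 6 higher and 4 lower in the dual treatment than in LPS. Their shares higher after LPS and in the dual treatment against LPS (35.3% in both) were near those of all tested genes (32.6% and 31.7%). Their shares lower were 23.5% in both, beside 33.9% and 27.4% of all genes, and the difference of these shares was not tested. Against control, 23.5% were higher and 11.8% lower in the dual treatment, beside 9.13% and 7.02%, but 0 genes were higher without dual-treated mouse 2 and 0 without control mouse 2 or 4. Calls fell among genes at large in these fits as well. Of all genes, 5.28% were higher without control mouse 2 and 5.3% without control mouse 4. The share without dual-treated mouse 2 is given above. Rb1, for the retinoblastoma protein, and E2f6, a repressor, fell after LPS (log2FC -0.99 and -0.97), whereas E2f7 and the pocket protein gene Rbl1 rose (log2FC 2.24 and 0.94). In the dual treatment the activator gene E2f3 was higher than in control and LPS (log2FC 0.79 and 0.96). Tfdp2, for a partner of E2F factors, and the MuvB gene Lin52 were lower than in control (log2FC -0.64 and -0.56) and in LPS (log2FC -0.59 and -0.86).

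Of 44 other S phase genes, 19 were higher and 13 lower after LPS (median log2FC 0.28), 20 higher and 1 lower in the dual treatment than in control (median 0.52), and 18 higher and 7 lower in the dual treatment than in LPS (median 0.43). As shares, 43.2% were higher and 29.5% lower after LPS, beside 32.6% and 33.9% of all tested genes, 45.5% and 2.27% in the dual treatment against control, beside 9.13% and 7.02%, and 40.9% and 15.9% against LPS, beside 31.7% and 27.4%. The 20 above control in the dual treatment were 4 without dual-treated mouse 2 and 7 to 9 without any 1 control mouse. Among all genes the share above control fell too, to between 5.28% and 5.9% without 1 control mouse. It also fell without dual-treated mouse 2, as given above. Fen1, which cuts flaps from Okazaki fragments, and Dtl, part of a ligase that degrades CDT1, led the rises after LPS (log2FC 3.00 and 2.79). Pold1, the catalytic subunit of polymerase delta, and Rpa3, a subunit of the single-strand binding protein, fell most (log2FC -1.44 and -1.12). Fen1 went from 0.711 ± 0.144 to 5.71 ± 1.86 CPM and Pold1 from 29.2 ± 4.73 to 10.7 ± 1.17 CPM. Clspn and Dtl were furthest above control in the dual treatment (log2FC 2.77 and 2.59), and Orc4, part of the origin recognition complex, was the 1 gene below it (log2FC -0.44). Against LPS, Pold1 was higher (log2FC 1.87) and Fen1 and Timeless lower (log2FC -1.61 and -1.60).

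Of 49 other G2/M genes, 29 were higher and 2 lower after LPS (median log2FC 1.08), 36 higher and 1 lower in the dual treatment than in control (median 1.38), and 12 higher and 4 lower in the dual treatment than in LPS (median 0.39). Beside the shares of all genes just given, 59.2% were higher and 4.08% lower after LPS, and 73.5% and 2.04% in the dual treatment against control. Against LPS the shares were 24.5% and 8.16%, beside 31.7% and 27.4% of all genes, and the difference was not tested. The 36 above control in the dual treatment were 6 without dual-treated mouse 2 and 17 to 21 without any 1 control mouse, and the 12 above LPS were 5 without dual-treated mouse 2. Shares of all genes called higher fell in these fits as well. Against control they were 5.28% to 5.9% without 1 control mouse, and those without dual-treated mouse 2 are given above. The centrosome kinase gene Nek2 had 5.77, 7.08 and 5.70 CPM in the control mice, 102, 109 and 131 in the LPS mice, and 25.2 and 8.33 in the dual-treated mice. This was the largest rise after LPS among all the cell cycle genes listed here (log2FC 4.20 ± 0.35 SE, edgeR adjusted p = 7.47e-06), and the dual treatment was lower than LPS (log2FC -2.76 ± 0.38 SE, edgeR adjusted p = 0.000241). Shcbp1, needed at the end of cytokinesis, was next in this list (log2FC 3.61), and Shcbp1 and the mitotic kinase gene Pbk rose most in the dual treatment (log2FC 3.80 and 2.72 against control). Cdc25b, a phosphatase that activates CDK1, and Spc24, a kinetochore gene, were the 2 that fell after LPS (log2FC -1.48 and -1.08). Against LPS, the separase gene Espl1 and Spc24 were highest in the dual treatment (log2FC 2.05 and 1.62), and Fam83d, which helps to position the spindle, was next to Nek2 among those lower (log2FC -2.17). Smc4 of the condensin complex was the 1 gene called below control in the dual treatment (log2FC -0.42).

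Markers of other cell types differed between the groups as well, in counts to be held beside the shares of all tested genes given above (for LPS against control 32.6% higher and 33.9% lower). The 7 granulocyte precursor genes, led by Prtn3, summed to 4.74, 3.52 and 2.34 CPM in control, 36.6, 35.8 and 25.3 in LPS, and 7.71 and 8.73 in the dual treatment. Of them 6 were tested, and 6 were higher in LPS than in control, 5 lower in the dual treatment than in LPS, and 2 higher in the dual treatment than in control; Fcnb had no count in control mouse 4 and Ms4a3 none in dual-treated mouse 2. The 8 monocyte and macrophage genes, led by Csf1r, summed to 245, 211 and 264 CPM in control, 248, 249.9 and 185 in LPS, and 758 and 866 in the dual treatment, with 2 of 8 higher and 4 lower in LPS than in control, 7 of 8 higher in the dual treatment than in control and 7 of 8 higher than in LPS. The 7 mature neutrophil genes, led by S100a9, summed to 225, 125 and 130.0 CPM in control, 2161, 3005 and 1891 in LPS, and 1730 and 2408 in the dual treatment, with 7 of 7 higher in LPS and 6 of 7 in the dual treatment. In the dual treatment against LPS, 3 of the 7 were higher and 1 lower. The 6 B cell genes, led by Cd79b, summed to 41.5, 45.5 and 42.1 CPM in control, 28.6, 28.3 and 20.1 in LPS, and 77.1 and 29.1 in the dual treatment, and dual-treated mouse 2, in which 40 members were highest, was also highest of the 8 in this sum. Of these 6 genes 3 were lower in LPS than in control and 3 higher in the dual treatment than in LPS, and Cr2 had no count in LPS mouse 1. Their part in the levels of the members was not tested.

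The 7 endothelial genes, led by Cdh5, summed to 2816, 3117 and 3233 CPM in control, 2009, 1659 and 1609 in LPS, and 2908 and 3024 in the dual treatment, with 5 of 7 lower in LPS than in control and 5 of 7 higher in the dual treatment than in LPS. The 7 type 2 cell genes, led by Sftpc, summed to 36870, 30890 and 38650 CPM in control, 29000, 20650 and 16920 in LPS, and 20020 and 30280 in the dual treatment, with 5 of 7 lower and 1 (Sftpd, log2FC 1.02) higher in LPS than in control, and the 6 type 1 cell genes, led by Ager, to 4233, 4005 and 4121 CPM in control, 3463, 2943 and 2010 in LPS, and 2119 and 2927 in the dual treatment, with 3 of 6 lower and 1 (Pdpn, log2FC 0.94) higher. In the dual treatment against LPS, 2 type 2 genes were higher, and 3 type 1 genes were higher and 2 lower. Against control, 2 of the 6 type 1 genes were lower in the dual treatment (33.3%, beside 7.02% of all tested genes) and 0 higher. No type 2 gene was called there. Dual-treated mouse 2 was below mouse 5 in both epithelial lists. The 8 erythroid genes, led by Hbb-bs, summed to 1736, 3916 and 2787 CPM in control, 3305, 1894 and 1481 in LPS, and 428 and 382 in the dual treatment, with 1 of the 7 tested higher in LPS than in control, 5 lower in the dual treatment than in control and 7 lower than in LPS, with Klf1 at 0 counts in LPS mice 1 and 6. The 7 T cell genes, led by Cd3d, summed to 18.3, 12.8 and 11.4 CPM in control, 15.3, 12.6 and 7.47 in LPS, and 7.43 and 8.42 in the dual treatment and the 5 NK cell genes, led by Klrb1c, to 4.40, 2.77 and 3.35 CPM in control, 4.33, 3.06 and 1.39 in LPS, and 4.71 and 11.4 in the dual treatment, with 2 of 7 and 1 of 5 lower in LPS than in control, 2 T cell genes lower and 3 NK cell genes higher in the dual treatment than in LPS, and Klre1 at 0 counts in LPS mouse 6. The shares lower in LPS, 28.6% of the T cell and 20% of the NK cell genes, were not above the 33.9% of all genes, and 28.6% of the T cell genes lower in the dual treatment than in LPS was near the 27.4% of all genes. The 8 alveolar macrophage genes, led by Chil3, summed to 972, 706 and 919 CPM in control, 984, 1059 and 532 in LPS, and 1084 and 1772 in the dual treatment, with 3 of 8 lower in LPS and 4 of 8 higher in the dual treatment than in LPS. The part of these cells in the levels of the members was not tested either.

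The 9 squamous epithelium genes that could be matched of 10, led by Krt13, summed to 5.57, 10.8 and 11.2 CPM in control, 0.948, 713 and 2008 in LPS, and 9.34 and 23.6 in the dual treatment, and the 8 skeletal muscle genes, led by Acta1, to 9.92, 20.4 and 14.9 CPM in control, 20.7, 528 and 1358 in LPS, and 6.39 and 7.89 in the dual treatment. Both were high in LPS mice 6 and 7 and not in LPS mouse 1, which had no count of Krt4, Krt6a, Sprr3, Sprr1b or Myh1. Krt16, Sprr3, Sprr1b and Crct1 were at 0 counts in all control mice, Krt4, Krt6a, Acta1 and Myh1 in control mouse 1, Myh4 in control mouse 4, Crct1 in both dual-treated mice, Krt5 in dual-treated mouse 2 and Sprr1b in dual-treated mouse 5. In LPS against control 7 of the 8 squamous genes tested and 8 of 8 muscle genes were higher, and in the dual treatment against LPS 6 and 8 were lower. LPS mouse 1 had the highest G2/M score of the 3 LPS mice with TMM and with library size scaling, whereas its G1/S score was the highest with TMM (factor 0.81) and the lowest with library size (3.18, against 3.30 and 3.20 in mice 6 and 7). The part of squamous and muscle RNA in the members' levels was not tested.

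The sequence before the start of each member was searched for short motifs known from genes of these phases. RefSeq promoter windows (build GRCm38.p6) matched 42 of the 52 members, and the 250 bases before each start were read on both strands. Without an entry were Aurkb, Ccna2, Ccne2, Dlgap5, Foxm1, Gins2, Kif20a, Mcm4, Stmn1 and Tpx2. The E2F-type motif TTTNNCGC was held by 5 of 19 G1/S members (26.3%) and 1 of 23 G2/M members (4.35%), against 4.94% of all 27025 genes with a window. A gene with more than 1 window counts if any of them holds the motif, for members (Mcm7, Prc1 and Uhrf1 have 2) as for all genes. The CHR-type motifs TTTGAA or TTTAAA, to which the MuvB core binds, were held by 6 of 19 G1/S (31.6%) and 14 of 23 G2/M members (60.9%), against 28.1% of all genes. CCAAT, the motif of NF-Y, was held by 12 of 19 G1/S (63.2%) and 20 of 23 G2/M members (87.0%), against 37.5%, and at least 2 copies of it by 7 of 19 (36.8%) and 15 of 23 (65.2%), against 11.5%. A TTTGAA or TTTAAA together with a CCAAT was found in 4 of 19 G1/S (21.1%) and 12 of 23 G2/M members (52.2%) and in 10.1% of all genes. TTTAAA reads the same on both strands, and copies of TTTNNCGC can overlap on opposite strands. These shares describe letters and say nothing of binding.

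Windows of 4 members show how the motifs are arranged, with Mcm6 as the licensing gene of the highest RPKM over the 8 mice, Cdk1 and Top2a as G2/M members that rose, and Bub1 as a member that fell after LPS. Each is printed 5′ to 3′ on the strand of the gene up to the base before its start, and capitals mark every match to the 4 motifs on either strand (ATTGG is CCAAT, and TTCAAA is TTTGAA, read on the other strand). Mcm6 lies at chr1:128359706-128359955, Cdk1 at chr10:69352913-69353162, Top2a at chr11:99024190-99024439 and Bub1 at chr2:127831860-127832109, all on the minus strand of GRCm38.p6.
Mcm6: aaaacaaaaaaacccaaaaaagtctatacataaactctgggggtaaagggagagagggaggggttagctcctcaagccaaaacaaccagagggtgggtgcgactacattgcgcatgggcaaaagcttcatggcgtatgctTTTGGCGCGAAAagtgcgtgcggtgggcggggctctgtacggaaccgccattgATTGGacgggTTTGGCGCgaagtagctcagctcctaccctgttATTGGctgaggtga
Cdk1: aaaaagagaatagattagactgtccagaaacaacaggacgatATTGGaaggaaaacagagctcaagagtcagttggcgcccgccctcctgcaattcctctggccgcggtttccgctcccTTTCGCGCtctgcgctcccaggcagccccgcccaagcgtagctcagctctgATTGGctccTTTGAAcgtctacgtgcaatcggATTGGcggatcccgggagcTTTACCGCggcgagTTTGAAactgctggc
Top2a: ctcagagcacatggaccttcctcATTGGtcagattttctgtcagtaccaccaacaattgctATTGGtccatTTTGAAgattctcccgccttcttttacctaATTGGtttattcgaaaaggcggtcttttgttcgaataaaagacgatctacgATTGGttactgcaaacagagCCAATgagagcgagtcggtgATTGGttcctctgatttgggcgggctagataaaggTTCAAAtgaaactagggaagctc
Bub1: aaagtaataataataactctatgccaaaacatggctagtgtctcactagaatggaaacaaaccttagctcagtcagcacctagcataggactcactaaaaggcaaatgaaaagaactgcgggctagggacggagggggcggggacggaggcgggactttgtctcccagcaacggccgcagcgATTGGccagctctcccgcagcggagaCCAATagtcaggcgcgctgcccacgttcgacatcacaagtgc
In Mcm6 a pair of TTTNNCGC matches on opposite strands shares bases, and a further match lies 47 bases before the start. Cdk1, the 1 G2/M member with TTTNNCGC, holds 2 copies each of TTTNNCGC and TTTGAA and 3 of CCAAT. Top2a holds 6 CCAAT and 2 TTTGAA. Bub1 holds 2 CCAAT and neither CHR-type motif in this window, and Hmmr, which rose after LPS, likewise holds CCAAT without them.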

How the data were processed

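Lung RNA, enriched for mRNA by poly(A) selection or rRNA removal, was sequenced from 8 mice. The authors deposited raw counts per Ensembl gene and mouse, made with FastQC 0.11.9, Trim Galore, HISAT2 2.2.1 (GRCm39) and featureCounts 2.0.1. The annotation release, strand setting and handling of multi-mapped reads are not given in the sources. The methods of the study name 3 sequenced mice per group, but the labels hold 2 dual-treated mice, as does the legend of its RNA-seq figure. Genes were kept with filterByExpr by group, normalized with TMM and fitted in edgeR 4.0.16 (R 4.3.3) with quasi-likelihood tests on all 8 libraries (residual df 5). A gene was called at an adjusted p (Benjamini-Hochberg over 18560 genes) under 0.05. DESeq2 1.42.0, other normalizations, filters, thresholds and sample sets were run as alternatives. Scores are means of log2 CPM with a prior count of 2, and RPKM uses the canonical transcript length. The fit was checked on simulated data in which 200 of 18560 genes changed by 2 on the log2 scale, up or down. It recovered 77% of them for LPS against control, 74.5% for the dual treatment against control and 81.5% against LPS. Far more genes were called in the data, so this check does not test the scaling between groups.

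Per-mouse values were set to be given for the member of highest mean CPM in each role, for the 2 called members with the highest and the 2 with the lowest log2FC per phase and comparison, and for Mki67, Top2a, Cdk1 and Pcna. In each list of other cell cycle genes the genes named were among the 2 called at each end, with all D cyclins and CDK inhibitors. The remaining members were named to account for their role, and genes outside this rule were chosen after their values were seen. Members, cell cycle lists and cell type marker lists were chosen with earlier results of these data known.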

Additional observations from a re-analysis of the deposited data

How the results depend on the processing

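Alternatives were grouped by test, scaling, filter, threshold and samples. No called member reversed direction. Without LPS mice 6 and 7, or without 1 dual-treated mouse, the lone mouse left was assumed to vary like the other groups. No paired analysis was run, because the mice were randomly divided into groups and the labels pair no mice of different groups. With at least 10 counts in every library, 49 of 52 members were tested, and with only the LPS and control libraries 51. The medians have no value of their own under the test against a 1.5-fold change. The dual treatment rests on 2 mice. Counts of called members over both phases, and medians by phase, that are not given here stayed within 1.5 times or the spread between mice. Counts by phase, role and list are small and moved further, most of all without dual-treated mouse 2, where the members above control were 7 (G1/S) and 14 (G2/M) in place of 14 and 24, and under the test against a 1.5-fold change, where 9 G1/S members were. The shares of all genes called moved further in places: in the dual treatment against control they went from 9.13% higher and 7.02% lower to 4.06% and 2.21% without dual-treated mouse 2, to 5.28% and 3.15% without control mouse 2 and to 3.35% and 0.851% under the test against a 1.5-fold change, which gave 19.5% and 22.3% in LPS against control. The cause of the moves was not tested.

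With library size in place of TMM, the LPS medians against control were 0.49 (G1/S) and 1.09 (G2/M), and in the dual treatment against LPS 29 members were higher and 1 lower, with medians of 0.75 and 0.82. The test against a 1.5-fold change gave 9 higher and 1 lower in that comparison (beside 19.6% and 14.4% of all genes), the criterion of the study 11 and 1, and the fit without LPS mice 6 and 7 gave 8 higher and a G2/M median of 0.18. In the dual treatment against control, 1 member was lower with DESeq2 and 1 with no filter on low counts. Leaving out 1 mouse at a time, the dual treatment against control had 21 to 39 members higher and 0 to 1 lower, with medians of 0.74 to 1.39 (G1/S) and 1.32 to 2.19 (G2/M). Against LPS it had 7 to 22 higher and 2 to 5 lower, with medians of 0.085 to 0.68 (G1/S) and 0.062 to 0.82 (G2/M).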
